A study of Mus musculus with 12 samples.

Results

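The genes described here mark radial glia, the stem cells of the embryonic brain, and were followed in 2 array experiments in mouse. The members were Hopx, Nes, Vim, Fabp7, Slc1a3, Prom1, Id4, Ddah1 and Ptprz1. They were chosen by name, Hopx because its level had fallen in these data and the others as genes of radial glia. All probe sets whose single gene symbol was a member were used, 19 of the 45037 on the array. Since a fall of Hopx chose it, its values are given as a description in both experiments, with no test. The choice names no experiment. Earlier results of these data gave that fall with Nf2 knockout, so the Nf2 values are a description for every member, and the YAP values of the other members are tested.

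The first experiment used forebrain with midbrain at E11.5, in 3 samples with YAP overexpression (TetO-YAP1;Nes-rtTA) and 3 YAP controls (Nes-rtTA). The transgene encodes YAP1 with the S127A substitution and is induced by doxycycline through a transactivator under the Nestin promoter, active in neural progenitors. Dams of both groups are described as fed doxycycline at 200 mg/kg of food from E7.5, and both groups carry the transactivator. The second used the dorsal telencephalon at E13.5, in 3 Nf2 knockout samples (Nf2F/F;Emx1-Cre) and 3 Nf2 controls (Nf2F/+;Emx1-Cre). Emx1-Cre is active in progenitors of the dorsal telencephalon and their descendants. The controls carry the same Cre and lack 1 allele of Nf2 in the cells where it is active, so the comparison is of no copy against 1 copy. The background was mixed in all 4 groups, and the labels do not say whether the samples of a group were separate embryos, so p-values reflect only the spread among these samples, which may be technical.

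Radial glia stretch from the ventricle to the outer surface of the brain wall and divide to give intermediate progenitors and neurons. Their long processes are built on the intermediate filament proteins nestin and vimentin, and they carry lipid-binding proteins, glutamate transporters and apical membrane proteins. YAP is a transcriptional co-activator that works with TEAD proteins and is held back by the Hippo kinases. Merlin, the product of Nf2, acts upstream of those kinases. HOPX is a small homeodomain protein that does not bind DNA. It is known as a marker of outer radial glia in human cortex and of stem cells in the mouse hippocampus.

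The sequences before the start sites of 4 members are shown because the results turn on these genes. Hopx has 2 annotated starts, Ptprz1 fell and Ddah1 rose with YAP overexpression, and Id4 is the member whose promoter holds GGAATG, the core that TEAD proteins bind. They are the 250 bases before each start in RefSeq (GRCm38.p6), written 5′ to 3′ along the gene. GGAATG and TGGGAA, the core bound by the Notch partner RBPJ, were searched on both strands, and capitals mark a match. The 2 motifs share the letters GGAA.
Hopx, first start (chr5:77115124-77115373, minus strand): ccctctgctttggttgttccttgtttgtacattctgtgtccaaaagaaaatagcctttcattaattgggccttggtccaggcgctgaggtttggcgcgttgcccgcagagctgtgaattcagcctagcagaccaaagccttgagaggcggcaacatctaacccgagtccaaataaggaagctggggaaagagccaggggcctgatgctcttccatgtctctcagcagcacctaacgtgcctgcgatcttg
Hopx, second start (chr5:77095268-77095517, minus strand): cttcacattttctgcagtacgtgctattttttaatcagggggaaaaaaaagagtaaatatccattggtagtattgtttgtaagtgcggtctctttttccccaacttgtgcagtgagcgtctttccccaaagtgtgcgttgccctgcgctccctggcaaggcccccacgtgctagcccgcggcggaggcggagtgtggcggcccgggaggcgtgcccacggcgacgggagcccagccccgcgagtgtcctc
Ptprz1 (chr6:22875252-22875501, plus strand): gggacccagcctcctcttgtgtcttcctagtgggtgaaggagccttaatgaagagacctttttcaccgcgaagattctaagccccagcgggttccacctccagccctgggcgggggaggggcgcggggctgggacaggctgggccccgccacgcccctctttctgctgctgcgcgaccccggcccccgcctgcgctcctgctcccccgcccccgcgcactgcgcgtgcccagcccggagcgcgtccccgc
Ddah1 (chr3:145758442-145758691, plus strand): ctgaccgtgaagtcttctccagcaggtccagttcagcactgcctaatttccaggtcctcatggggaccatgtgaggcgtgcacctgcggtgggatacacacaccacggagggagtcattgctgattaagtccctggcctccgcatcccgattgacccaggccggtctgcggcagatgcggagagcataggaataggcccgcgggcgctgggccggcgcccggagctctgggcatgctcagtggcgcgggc
Id4 (chr13:48260866-48261115, plus strand): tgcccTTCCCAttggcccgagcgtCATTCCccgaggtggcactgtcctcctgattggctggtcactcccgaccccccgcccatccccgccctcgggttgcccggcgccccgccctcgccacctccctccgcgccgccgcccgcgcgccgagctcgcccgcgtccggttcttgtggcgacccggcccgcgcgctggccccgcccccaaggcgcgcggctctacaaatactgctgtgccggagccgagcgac
Both Id4 matches were reverse complements, GGAATG at 226 and TGGGAA at 245 bases before the start. All 9 members matched the table, with 11 promoters. GGAATG was in 1 of the 11, against 12.6% of all 32851 promoters of that length, and TGGGAA in 3 of the 11 (Fabp7, Prom1 and Id4), against 21.6%. A missing match says only that these letters are not in this window.

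Array medians were 5.03 to 5.10 for the YAP arrays and 4.30 to 4.42 for the Nf2 arrays, on the log2 scale of all values here. Within a group the arrays correlated with r of at least 0.993 over all probe sets. The number of arrays limits the precision, and an exact permutation test of 3 against 3 cannot go below p = 0.1, so limma's fit over all probe sets was used. A probe set is called at an adjusted p under 0.05. The genes that were manipulated moved little on their brightest probe sets. Yap1 read 11.35, 11.23 and 11.33 with YAP overexpression and 11.07, 10.99 and 11.05 in YAP controls (0.27, SE 0.08, limma adjusted p = 0.0957). Nf2 read 8.06, 8.27 and 8.11 in Nf2 knockouts and 8.41, 8.66 and 8.51 in Nf2 controls (-0.38, SE 0.10, limma adjusted p = 0.393). Neither pair of groups overlapped, and where the probes lie relative to the transgene and the deleted exons is not given in the sources used here. The YAP target gene Ccn2, which encodes a secreted matrix protein, rose in both experiments, by 2.50 (SE 0.22, limma adjusted p = 6.79e-05) with YAP overexpression and by 2.03 (SE 0.22, limma adjusted p = 0.0031) with Nf2 knockout. Differences are tested by limma on these log2 values, and SE is the standard error from that fit with 3 arrays against 3. The median difference of all probe sets was -0.01 for YAP and 0.00 for Nf2.

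Hopx was lower than control in both experiments and on both of its probe sets. On its brighter probe set, 1428662_PM_a_at, Hopx read 7.22, 7.13 and 7.47 with YAP overexpression, against 8.21, 8.29 and 8.60 in YAP controls. The groups did not overlap, and the difference of -1.09 (SE 0.11) is 2.13-fold on the linear scale. In the dorsal telencephalon the same probe set read 8.44, 8.40 and 8.36 in Nf2 knockouts, against 9.20, 9.09 and 9.25 in Nf2 controls. These groups did not overlap either, and the difference was -0.78 (SE 0.11), or 1.72-fold. Within the same-numbered Nf2 pairs Hopx differed by -0.76, -0.69 and -0.89.

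The second Hopx probe set, 1451776_PM_s_at, was lower on average by similar amounts but was far more variable in the YAP experiment. It read 5.64, 5.42 and 7.10 with YAP overexpression, against 5.84, 7.60 and 7.69 in YAP controls. Overexpression replicate 3 lay above control replicate 1, so the groups overlapped around a mean difference of -0.99 (SE 0.48). Leaving out control replicate 1 gave -1.59, leaving out overexpression replicate 3 gave -1.51, and the other 4 arrays, left out 1 at a time, gave -0.78 to -0.67. In the Nf2 experiment it read 7.36, 7.15 and 7.92 in knockouts and 8.11, 8.00 and 8.53 in controls, without overlap, for a difference of -0.74 (SE 0.48). The SE of 0.48 pools both experiments. With only the 6 arrays of an experiment it was 0.21 for Nf2 and 0.55 for YAP. Every knockout array was below every control array on both Hopx probe sets. In tissue samples such as these, fewer cells of a type and less RNA per cell cannot be told apart.

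**Figure D1:**
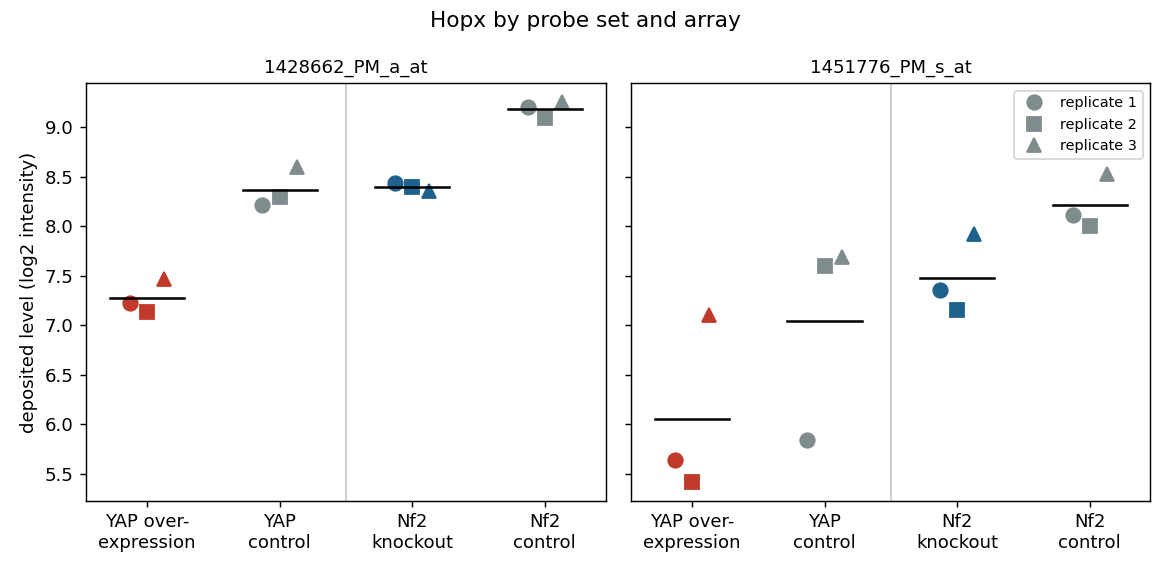
Level of Hopx (log2 intensity, y axis) on each array for both probe sets, in YAP overexpression, YAP control, Nf2 knockout and Nf2 control samples; symbols are replicates and lines are group means, and levels are comparable only within an experiment. The left probe set separates both pairs of groups, at means of 7.27 against 8.37 and 8.40 against 9.18, while on the right one YAP overexpression replicate 3 (7.10) lies above YAP control replicate 1 (5.84).

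Among the other 8 members, some were lower and others higher with YAP overexpression. Ptprz1 fell on both of its probe sets and Fabp7 on its single one, while Ddah1 rose on 3 of its 5 probe sets and Id4 on 1 of its 3. Nes, Vim, Slc1a3 and Prom1 were not called. Over the 17 probe sets of these 8 genes there were 4 rises and 3 falls, and 10 were not called, against 3.78% of all probe sets called (1.48% higher and 2.3% lower). That share counts dim probe sets too, while most of the 17 are bright. With the dim ones left out, the 1704 calls over all probe sets became 2225. Groups did not overlap for 9 of the 17, 5 higher and 4 lower, against 18.2% of all probe sets (7.89% higher and 10.3% lower). The 17 had a median difference of 0.19 and ranged from -0.78 to 0.81. With YAP control replicate 1 or 2 left out, 2 of the 17 were called, and with overexpression replicate 1 or 2 left out, 3 were. Both Ptprz1 probe sets passed with any 1 of the 6 arrays left out.

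Ptprz1 encodes a receptor-type tyrosine phosphatase of radial glia that binds the growth factor pleiotrophin. Its brighter probe set read 11.19, 11.10 and 10.78 with YAP overexpression, against 11.72, 11.61 and 11.86 in YAP controls. All overexpression arrays were lower, by -0.71 (SE 0.11, limma adjusted p = 0.00311). The dimmer probe set read 9.54, 9.55 and 9.07 against 10.09, 10.08 and 10.33 in YAP controls, a difference of -0.78 (SE 0.13, limma adjusted p = 0.00526). Overexpression replicate 3 was the lowest array on both.

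Fabp7 encodes the brain lipid-binding protein, a fatty acid carrier of radial glia. It read 11.99, 12.49 and 11.58 with YAP overexpression, against 12.79, 12.55 and 12.71 in YAP controls. The groups did not overlap, but replicate 2 came within 0.06 of the lowest control and replicate 3 was more than 1 unit below the control mean. The difference of -0.66 (SE 0.17, limma adjusted p = 0.0466) was no longer called without any of the 6 arrays except overexpression replicate 2. Over all alternatives it ran from -0.90 to -0.44, with adjusted p from 0.00151 to 0.179.

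Ddah1 encodes an enzyme that breaks down asymmetric dimethylarginine, an inhibitor of nitric oxide synthases. Its brightest probe set, 1429298_PM_at, read 10.46, 10.63 and 10.05 with YAP overexpression, against 9.75, 9.69 and 9.93 in YAP controls, a rise of 0.59 (SE 0.13, limma adjusted p = 0.0235). Probe sets 1454995_PM_at and 1455400_PM_at rose by 0.59 (SE 0.14, limma adjusted p = 0.0402) and 0.47 (SE 0.12, limma adjusted p = 0.0466). On all 3, overexpression replicates 1 and 2 were clearly above the controls and replicate 3 was close to the highest control. None of the 3 was called once replicate 1 or 2 of either group was left out. Probe set 1429299_PM_at showed the widest gap, reading 7.97, 7.84 and 6.91 with overexpression against 6.60, 6.60 and 7.10 in controls. It overlapped through replicate 3 and was not called (0.81, SE 0.22, limma adjusted p = 0.0698), and it was called without that array. The dimmest, 1434519_PM_at, read 5.10, 5.28 and 4.61 against 5.35, 5.07 and 5.26 in controls, close to the array median, and differed by -0.23 (limma adjusted p = 0.614).

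Id4 encodes a helix-loop-helix protein that lacks a DNA-binding region and holds back differentiation factors of the same family. Its dimmest probe set, 1423260_PM_at, read 10.19, 10.53 and 10.62 with YAP overexpression, against 9.96, 9.62 and 10.12 in YAP controls, and rose by 0.55 (SE 0.13, limma adjusted p = 0.0361). The call was lost without control replicate 1, control replicate 2, overexpression replicate 2 or overexpression replicate 3. Its brightest probe set differed by only 0.17 (SE 0.09, limma adjusted p = 0.395) and the remaining one by 0.19 (SE 0.11, limma adjusted p = 0.446). The 3 Id4 probe sets thus shared a sign but not a call.

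The filament genes were slightly higher without being called in the main fit. Vim, which encodes vimentin, read 14.22, 14.28 and 14.12 on its brightest probe set with YAP overexpression, against 13.98, 13.97 and 13.86 in YAP controls. These groups did not overlap, and the difference of 0.27 (SE 0.08) had a limma adjusted p of 0.0828. The other Vim probe sets differed by 0.24 and 0.08 and overlapped. Nes, which encodes nestin, read 7.51, 7.90 and 7.36 against 7.42, 7.25 and 7.43 in YAP controls, with a difference of 0.22 (SE 0.12, limma adjusted p = 0.435) that rested mostly on replicate 2.

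Prom1 encodes prominin, a protein of apical membrane protrusions. It read 11.91, 11.95 and 12.03 with YAP overexpression and 11.79, 11.97 and 11.89 in YAP controls, overlapping around a difference of 0.08 (SE 0.09, limma adjusted p = 0.748). Slc1a3 encodes the glutamate transporter GLAST. Its single probe set was dim, at 4.75, 4.89 and 4.76 with overexpression and 5.14, 5.04 and 5.20 in YAP controls, around the array medians. The groups did not overlap and differed by -0.33 (SE 0.10), which was not called (limma adjusted p = 0.101).

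**Figure D2:**
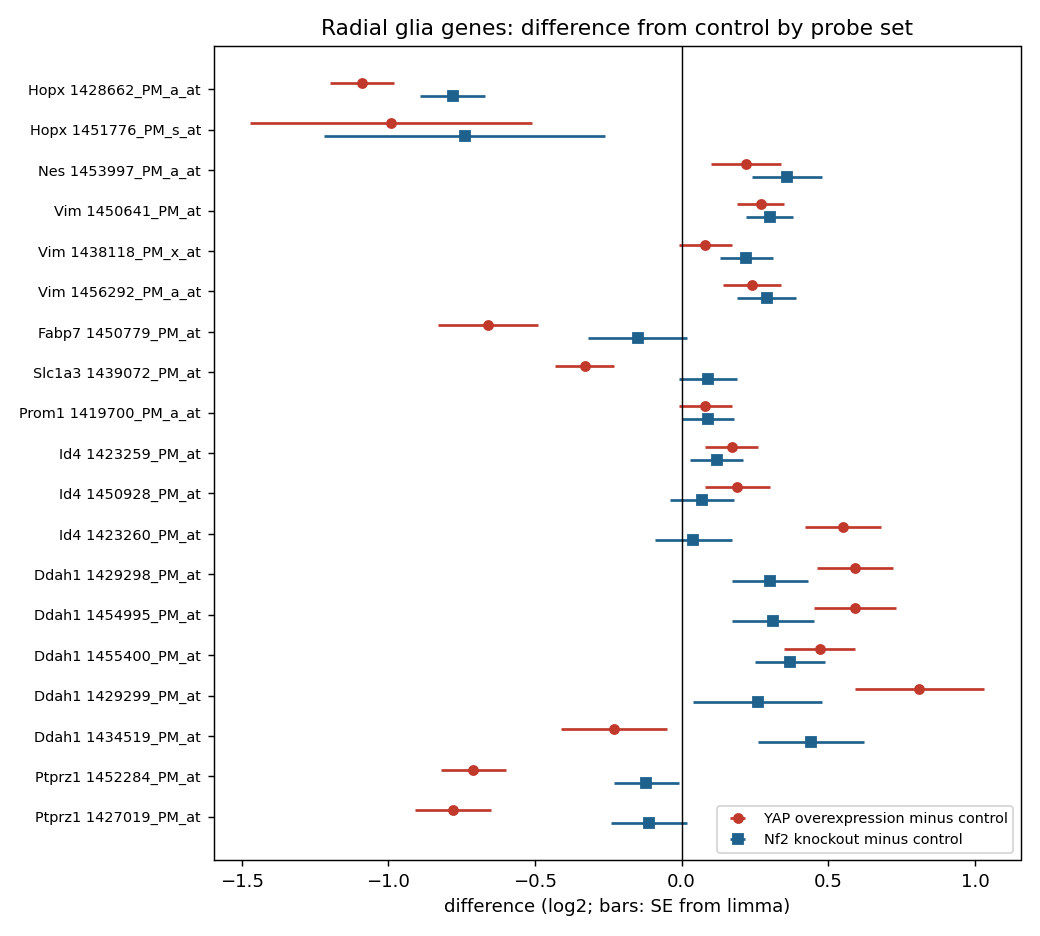
Difference from control (log2, x axis) of each of the 19 probe sets, with circles for YAP overexpression minus control and squares for Nf2 knockout minus control, and bars showing the SE from limma. Hopx lies to the left in both experiments (-1.09 and -0.78 on the brighter probe set), Ptprz1 lies to the left with YAP overexpression (-0.71 and -0.78) and near 0 with Nf2 knockout (-0.12 and -0.11), and Vim, Nes and most Ddah1 probe sets lie to the right.

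In the Nf2 experiment most other members were a little higher in the knockouts, the opposite sign to Hopx. Of the 17 probe sets, 14 had a positive and 3 a negative difference, with a median of 0.22 and a range from -0.15 to 0.44. Groups did not overlap for 11 of the 17, 10 of them higher, against 10.8% of all probe sets (5.39% higher). Limma called none of the 17 (1, the brightest Vim probe set, with an intensity trend in the spread), against 0.133% of all probe sets. An unadjusted p under 0.05 went with 8 of the 17, against 5.25% of all probe sets. Nothing is read from these counts, since they come from the contrast in which the fall of Hopx had been seen.

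All 3 Vim probe sets were higher in every knockout array than in any control. The brightest read 12.99, 12.87 and 12.84 in Nf2 knockouts, against 12.59, 12.65 and 12.57 in Nf2 controls, a difference of 0.30 (SE 0.08). The others differed by 0.22 and 0.29. Nes read 6.53, 6.58 and 6.32 in knockouts and 6.12, 6.15 and 6.07 in controls, also without overlap, with a difference of 0.36 (SE 0.12).

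Ddah1 was higher in the knockouts on all 5 probe sets, each without overlap. The dimmest, 1434519_PM_at, lay close to the array median, and its groups were barely apart (lowest knockout 4.76, highest control 4.75). Its same-numbered pairs differed by 0.67, 0.01 and 0.63, and its difference of 0.44 was the largest of the 5. The brightest read 10.30, 10.35 and 10.36 in Nf2 knockouts, against 9.91, 10.13 and 10.06 in Nf2 controls, a difference of 0.30 (SE 0.13), and the 5 ran from 0.26 to 0.44. Fabp7 was the member apart from Hopx that was lower without overlap, at 12.11, 12.04 and 12.09 in knockouts and 12.25, 12.19 and 12.25 in controls. That difference of -0.15 (SE 0.17, or 0.07 with only the 6 Nf2 arrays) was small, and the pairs differed by -0.14, -0.15 and -0.16.

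The remaining members differed little. Ptprz1 read 9.90, 9.79 and 9.82 in Nf2 knockouts and 9.87, 10.01 and 9.98 in Nf2 controls, overlapping around -0.12 (SE 0.11). Id4 was higher by 0.12 (SE 0.09) on its brightest probe set, without overlap, and by 0.04 and 0.07 on the others. Prom1 (0.09, SE 0.09) and Slc1a3 (0.09, SE 0.10) overlapped.

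**Figure D3:**
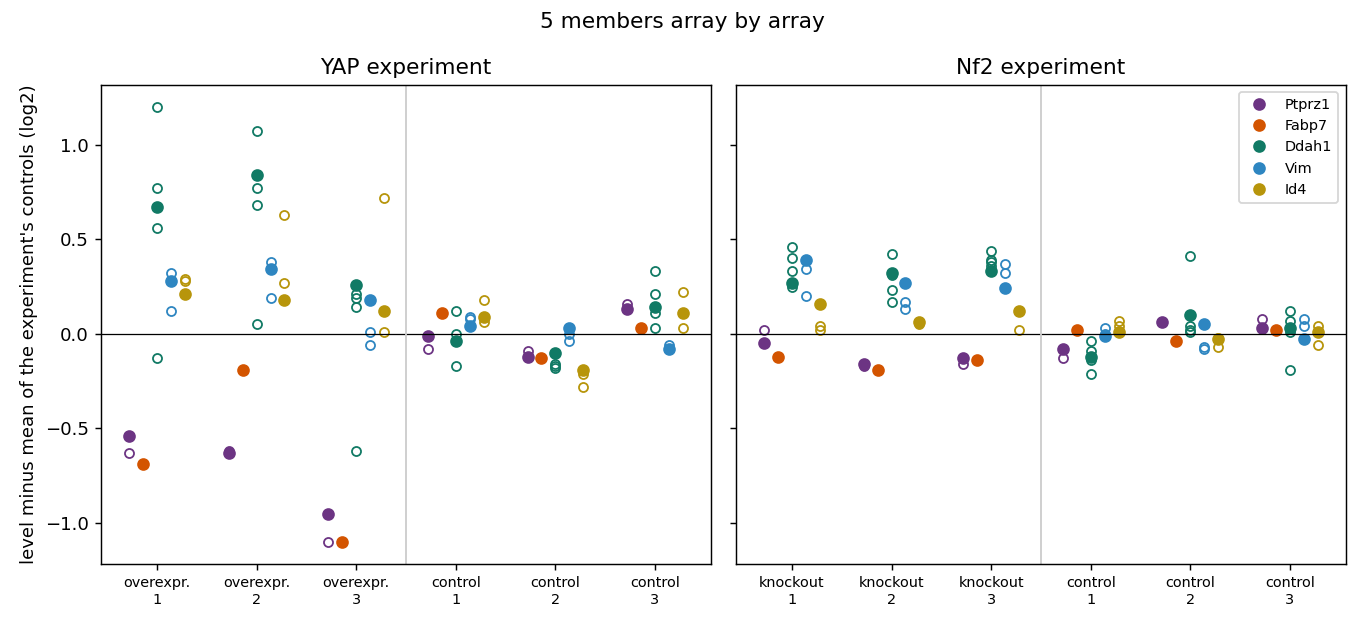
Level of each array minus the mean of its experiment's controls (log2, y axis) for Ptprz1, Fabp7, Ddah1, Vim and Id4, with filled points for the brightest probe set of a gene and open points for its others. With YAP overexpression, replicate 3 is the lowest array for Fabp7 (-1.10) and Ptprz1 (-0.95) and the overexpression array nearest to the controls for Ddah1 (0.26), while with Nf2 knockout Fabp7 lies between -0.19 and -0.12 and the brightest Ddah1 probe set between 0.27 and 0.33.

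The difference between the YAP effect and the Nf2 effect was also fitted for each member, leaving out Hopx. It uses the Nf2 values, which are a description, so its counts are a description too. Limma called none of the 17 probe sets, against 0.12% of all probe sets, and 6 had an unadjusted p under 0.05, against 8.27% of all probe sets. The lowest adjusted p was 0.235, for the brighter Ptprz1 probe set, whose difference of effects was -0.59 (SE 0.15). The call of Ptprz1 in the YAP experiment is therefore not shown to be particular to it. The experiments also differ in age, tissue and manipulation, which cannot be told apart here. Of the 17 probe sets, 12 were positive in both experiments and 3 negative in both, and 2 had opposite signs. The share with the same sign was 88.2%, against 54.9% of all probe sets. Several of the 17 measure the same gene, and nothing is read from this share, which uses the Nf2 values.

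Family relatives of the members, with related transporters, filaments and carriers, mostly did not pass the test. Of 18 measured with 1 probe set per gene, 1 rose and 1 fell with YAP overexpression, against 4.98% of all 17097 genes called (2.06% higher and 2.92% lower), and the median was 0.02. Slc1a5, a transporter of neutral amino acids, rose by 0.62 (SE 0.10, limma adjusted p = 0.00328). Ina, which encodes the neuronal filament protein internexin, fell by 0.89 (SE 0.21, limma adjusted p = 0.0322), a call lost under 6 alternatives. The Id4 relatives Id1, Id2 and Id3 differed by -0.23, 0.00 and -0.35, none of them called. The Fabp7 relatives Fabp3 and Fabp5 differed by 0.41 and -0.19, and Ddah2 by 0.12, also not called. Limma called none of the 18 with Nf2 knockout, where 2 had an unadjusted p under 0.05 (5.81% of all genes did) and 0.211% of all genes were called (0.175% higher).

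With YAP overexpression, further genes of radial glia moved in both directions. Among 29 measured there were 2 rises and 4 falls, against 2.06% of all genes called higher and 2.92% lower. The other 23 were not called, and the median was -0.05. The Notch effector gene Hes1 rose by 0.60 (SE 0.10, limma adjusted p = 0.00549). The cortical transcription factor genes Lhx2 and Emx2 fell, with differences of -0.69 (SE 0.09, limma adjusted p = 0.000943) and -0.68 (SE 0.10, limma adjusted p = 0.00308). The other 2 falls were Sox9 (-0.61, SE 0.13, limma adjusted p = 0.0235) and Pax6 (-0.34, SE 0.08, limma adjusted p = 0.0244). Ttyh1 had the lowest difference of the list, -1.07 (SE 0.29), but was not called (limma adjusted p = 0.0676). Rgcc, a regulator of the cell cycle, rose in both experiments. It averaged 8.58 with YAP overexpression and 8.02 in YAP controls (0.56, SE 0.09, limma adjusted p = 0.00472), and 8.12 in Nf2 knockouts and 7.32 in Nf2 controls (0.80, SE 0.09, limma adjusted p = 0.00338). It was the only one of the 29 called with Nf2 knockout, against 0.211% of all genes, and their median there was 0.01.

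Genes known from outer radial glia of human cortex, where Hopx is a marker, mostly did not pass the test. Of 12 measured, Stat3, a transcription factor downstream of cytokine receptors, fell with YAP overexpression by 0.67 (SE 0.13, limma adjusted p = 0.0108), although its other probe set differed by 0.00. The other 11 were not called, against 4.98% of all genes called, and the median was 0.02. With Nf2 knockout limma called none and the median was -0.01. An unadjusted p under 0.05 went with 2 of the 12, against 5.81% of all genes.

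**Figure D4:**
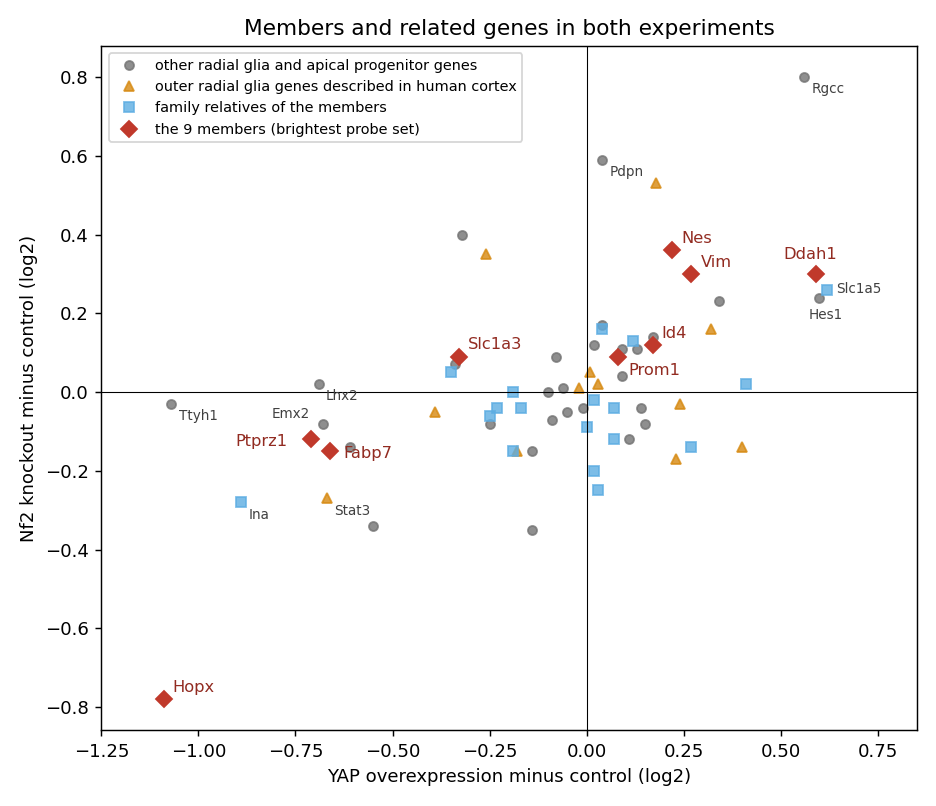
Difference with YAP overexpression (log2, x axis) against difference with Nf2 knockout (log2, y axis) for the brightest probe set of each of the 9 members (diamonds) and of 29 other radial glia genes (circles), 12 outer radial glia genes (triangles) and 18 family relatives (squares). Hopx lies at -1.09 and -0.78, at the lower left, and Rgcc at 0.56 and 0.80, at the upper right.

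Genes of later cell stages and of other regions moved beside these members. With YAP overexpression, 11 of 13 genes of intermediate progenitors fell (median -0.67) and none rose, 11 of 16 of neurons fell (median -0.73) and 8 of 9 of the ventral telencephalon fell (median -1.83). Of all genes, 2.92% were called lower and 2.06% higher. The named genes were Eomes (-1.22) and Sstr2 (-1.01) of the first list, Tbr1 (-1.49) and Slc17a6 (-1.02) of the second, and Dlx1 (-2.19) and Dlx2 (-1.92) of the third (limma adjusted p from 1.93e-05 to 0.00611). The mean log2 level of the neuronal list was 7.85 to 8.43 with overexpression and 8.67 to 9.04 in YAP controls. In the glial list Nfib (-0.84) and Olig2 (-0.73) fell and 10 of 12 were not called, with a median of -0.28. The Nfib call was lost under 6 alternatives and the Olig2 call under 8, and the 5 other Nfib probe sets ran from -0.98 to 0.32. The part of these shifts in the values of Hopx, Ptprz1 and Fabp7 was not tested.

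Apart from the YAP/TEAD targets, the other lists held few calls with YAP overexpression. Among all genes, 2.06% were called higher and 2.92% lower. In the cortical hem list 2 of 14 rose (Bmp6, 1.34, and Wnt5a, 0.75), in the choroid plexus list 1 of 8 rose (Folr1, 1.50), and in the midbrain list 1 of 12 fell (Th, -0.72). Of 14 YAP/TEAD targets, 8 rose and none fell, against 2.06% of all genes called higher and 2.92% lower. Limma called none of 9 mesenchymal, 10 endothelial, 10 microglial, 7 erythroid and 19 cell cycle genes, where 2, 0, 0, 2 and 2 had an unadjusted p under 0.05, against 18.6% of all genes.

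With Nf2 knockout, 4 of 14 YAP/TEAD targets rose, against 0.175% of all genes called higher. Limma called no gene of the other 12 lists of this kind. The microglial list averaged 5.21 to 5.32 in knockouts and 4.93 to 5.03 in controls. An unadjusted p under 0.05 went with 5 of its 10 genes, against 5.81% of all genes. The erythroid list averaged 8.04 to 8.15 in knockouts and 8.34 to 8.56 in controls, and 4 of its 7 genes had an unadjusted p under 0.05. The endothelial list ran from 5.74 to 6.30 in knockouts and from 6.26 to 6.41 in controls, with 4 of 10 such genes, and the hem list from 6.26 to 6.56 and from 6.08 to 6.34, with 5 of 14. Such genes numbered 2 of 16 neuronal, 2 of 9 ventral, 2 of 12 glial and 1 of 9 mesenchymal genes, and there were none among the genes of intermediate progenitors, choroid plexus, midbrain and cell cycle. Array values have no zero, so no marker can be called absent. The part of these shifts in the values of Hopx was not tested.

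The genes whose pattern was most like that of Hopx were sought over the 12 arrays, with each experiment centred on the mean of its controls, among 8550 brighter genes. Nhlh1, a transcription factor gene of newborn neurons, had the highest Pearson r (0.958), followed by Ankrd6 (0.943), Maco1 (0.941), Nav1 (0.94) and Plcb1 (0.918). Nhlh1 differed by -0.58 (SE 0.08) with YAP overexpression and by -0.36 (SE 0.08) with Nf2 knockout. Among the other members the same r was 0.757 for Ptprz1, 0.623 for Fabp7 and 0.504 for Slc1a3. It was -0.405 for Prom1, -0.651 for Id4, -0.678 for Nes, -0.869 for Ddah1 and -0.925 for Vim. These values describe 12 arrays that share their groups, so a gene lower than control in both experiments has a high r by that alone.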

How the data were processed

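RNA was measured on 12 Affymetrix 3' arrays, and the authors deposited log2 intensities per probe set, to 2 decimals. Per the submitters' processing notes, RMA, Affymetrix Expression Console 1.1 and Partek 6.5 were used, in roles not given in the sources used here. Array medians differed between the experiments, so levels were compared within an experiment only. No array repeated another.

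Of 45037 probe sets, 28898 had a single gene symbol in the platform table, and 28689 of these symbols were updated through Entrez IDs. A model of 4 group means was fitted to all probe sets with limma 3.58.1 (R 4.3.3). Two-sided p-values received the Benjamini-Hochberg adjustment across all 45037. In the gene lists, the probe set with the highest mean stood for a gene. The list genes named are the 2 called genes with the largest difference in each direction, and all called family relatives. Sox9, Pax6 and Ttyh1 were added to the named genes after their values were seen. The members, lists and alternatives were chosen with earlier results of these data known. The pipeline was tested on simulated data.

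Whether equal replicate numbers pair arrays was checked by the correlation of residuals. It was 0.296, 0.205 and 0.268 for the Nf2 pairs, so these count as pairs, and 0.117, -0.141 and -0.147 for the YAP pairs, which do not. The main fit did not use the Nf2 pairs, and Nf2 SEs and p-values come from it unless another setting is named. Rgcc and Ccn2 kept their Nf2 calls under every alternative, the replicate block among them. Other settings tried were scaling, a filter on dim probe sets, 1 probe set per gene, ambiguous probe sets left out, a trend in the spread, 6 arrays per fit, array weights, replicate blocks and leaving out each array.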

Additional observations from a re-analysis of the deposited data

How the results depend on the processing

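With Nf2 knockout the difference of the brighter Hopx probe set stayed between -0.82 and -0.74 under every alternative, and that of the other ran from -0.96 to -0.57. Counts of member probe sets here include the brighter Hopx one, which was chosen for its fall and supports nothing. Those called with YAP overexpression, 8 in all, were 5 with 1 probe set per gene (9 probe sets), where Vim was added. With only the 6 arrays of the experiment, which takes the Nf2 arrays out of the spread, they were 3. Of these, 2, both of Ptprz1, are not Hopx. The limma adjusted p was then 0.179 for Fabp7 and 0.151 for the dimmest Id4 probe set. For the 3 Ddah1 probe sets called in the main fit it was 0.11 to 0.155. With a replicate block there were 3, of which 2, both of Ptprz1, are not Hopx, but equal numbers do not pair these arrays. Leaving out 1 array gave 3 to 7. Calls over all probe sets, 1704, were 1078 with 1 probe set per gene, 648 with 6 arrays, and from 784 (without YAP control replicate 3) to 2014 with 1 array left out. With Nf2 knockout the member count of 1 became 2 with an intensity trend, where Vim was added, and 0 with any 1 of the 6 Nf2 arrays left out, where all calls numbered 21 to 32 instead of 60. The replicate block changed no member's call in the Nf2 experiment, where all calls were 44. No result turned its sign. Of the single-probe-set values of members other than Hopx, 447 kept their side of the threshold, 34 lost a call and 9 gained one. The 447 include many values not called in the main fit. The losses were all of YAP calls. Fabp7 lost its call under 9 of 15 alternatives and Id4 under 6 of 14. The 3 Ddah1 calls were lost under 6 of 15, 6 of 14 and 7 of 14. Neither Ptprz1 call was lost under any. The cause of these shifts was not tested. Signal close to the array median limits Slc1a3 and the dimmest Ddah1 probe set.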

Other observations

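The gap between the Hopx probe sets, brighter minus dimmer on the log2 scale, varied between arrays within a group. It was 1.58, 1.71 and 0.37 with YAP overexpression and 2.37, 0.69 and 0.91 in YAP controls. In the Nf2 experiment it was 1.08, 1.25 and 0.44 in knockouts and 1.09, 1.09 and 0.72 in controls.

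Pdpn, the gene of the membrane glycoprotein podoplanin, belongs to the list of other radial glia genes and was picked after its values were seen. It averaged 9.61 in Nf2 knockouts and 9.02 in Nf2 controls, a difference of 0.59 (SE 0.10) just short of a call (limma adjusted p = 0.0554). In the YAP experiment it averaged 10.70 with overexpression and 10.66 in controls (0.04, SE 0.10).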
